A study of Mus musculus with 20 samples.

Results

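The 10 genes described here carry insulin and insulin-like growth factor (IGF) signals: Igf1, Igf1r, Insr, Irs1, Irs2, Grb10, Foxo1, Foxo3, Igfbp2 and Igfbp5. They were taken by name, through the Ensembl identifiers of the count table, and are 10 of the 47729 genes listed there. All 10 had enough reads to be tested among 16692 genes, and the lowest count of any of them in any library was 97 (Igf1). RNA was sequenced from the hippocampus of male C57BL/6 mice, with 5 libraries in each of 4 groups. The groups are 24-month-old mice with an enriched environment (24mEE), 24-month-old mice in a standard cage (24mSC), 5-month-old mice with an enriched environment (5mEE) and 5-month-old mice in a standard cage (5mSC). By the paper's account, enrichment of old mice began late, in larger cages with running wheels after life in standard cages, and animals were kept in runs at different times. The paper does not describe young enriched mice, and the labels do not tie a library to a run. The run was therefore not part of the fit, and whether it differs between the groups is not known. The paper states that RNA was isolated from each sample on its own. It reports more mice in 24mEE, 24mSC and 5mSC than the 5 libraries a group used here. The labels do not say more of the replicates than that they are separate samples, so the p-values measure the spread between these samples.

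In this pathway IGF-1, or insulin, binds a receptor tyrosine kinase (IGF1R or the insulin receptor), which phosphorylates the adaptors IRS1 and IRS2 and so turns on PI3-kinase and AKT. AKT keeps the transcription factors FOXO1 and FOXO3 out of the nucleus, GRB10 binds the activated receptors and dampens them, and the IGF-binding proteins hold IGFs outside the cell. In the hippocampus the pathway is known for its part in neuronal growth, adult neurogenesis and memory, and in many animals weaker signalling through it goes with a longer life.

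The libraries held 10.96 to 34.11 M counts, and 3 counts, the limit that a count of 0 allows, correspond to 0.0882 to 0.329 CPM. CPM are counts divided by the TMM-adjusted library total, given in M. Library 5mSC replicate 3 stood apart. Mitochondrial ribosomal RNA took 26.8% of its counts, against 0.883 to 1.82% in the other 19 libraries, its choroid plexus markers averaged 3.06 on the log2 CPM scale, against -0.24 to 1.74 elsewhere, and its quality weight in limma was 0.0777. Library 5mSC replicate 1 had a weight of 0.19, and the remaining 18 libraries had weights of 0.687 to 1.88. For the comparisons with 5mSC, values without replicates 1 and 3 are given for most of the genes named. Markers of the hippocampal fields were present throughout, with Prox1, which marks dentate granule cells, at 70.1 to 175.3 CPM, and Wfs1, which marks CA1, at 61.8 to 241.1 CPM.

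Stretches before the start sites of the members with the largest differences, or with a motif in common, are shown first. They are from RefSeq (GRCm38.p6), which gave windows of 300 bases for 9 of the 10 members, 11 windows in all. The windows were searched on either strand for CACGTG (the E-box bound by bHLH-zip factors), TGTTTTG (the core of insulin response elements), TGTTTAC (the FOXO consensus) and TATAAA, the TATA box. A looser form of that box, TATTTAA, was added after its presence before Igfbp5 had been seen. Motifs are in capitals and the rest in lower case. The windows of the adaptors Irs1 and Irs2 were the only ones among the members to hold both CACGTG and TGTTTTG, overlapping in Irs1 and 1 base apart in Irs2, and 0.408% of all 32851 windows hold both motifs. The Irs1 stretch is chr1:82291515-82291574 and the Irs2 stretch chr8:11008934-11008993, both on the minus strand.
Irs1: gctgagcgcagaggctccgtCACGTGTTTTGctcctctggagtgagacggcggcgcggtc
Irs2: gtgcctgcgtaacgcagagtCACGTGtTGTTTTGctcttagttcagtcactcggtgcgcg

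The E-box began at position -115 from the start site in Irs1 and at -44 in Irs2. CACGTG alone is in 7.15% of all windows and TGTTTTG alone in 6.28%. TGTTTAC is in 3.65% and TATAAA in 13.6% of all windows, and neither is in a window of a member.

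Igfbp2 and Igfbp5 are neighbours on chromosome 1 that are read towards each other. Igfbp2 spans chr1:72824503-72852474 on the plus strand and Igfbp5 spans chr1:72857932-72874884 on the minus strand, with 5.46 kb between their ends. They are shown because their fold changes between 24mSC and 5mSC were the largest of the 10 genes, in opposite directions. The 150 bases before the outer of its RefSeq start sites in Igfbp2 (chr1:72824330-72824479) hold an E-box, and those of Igfbp5 (chr1:72874866-72875015) hold TATTTAA, a motif in 4.51% of all windows.
Igfbp2: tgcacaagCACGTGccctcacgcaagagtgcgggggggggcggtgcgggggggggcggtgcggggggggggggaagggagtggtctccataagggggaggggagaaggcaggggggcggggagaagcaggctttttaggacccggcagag
Igfbp5: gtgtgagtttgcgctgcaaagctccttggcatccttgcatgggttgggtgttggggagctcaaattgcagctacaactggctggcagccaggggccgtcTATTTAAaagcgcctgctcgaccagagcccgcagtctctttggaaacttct

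Grb10 (chr11:11930508-12038683, minus strand) is an imprinted gene, read from the maternal allele in most tissues and from the paternal allele in neurons, with different start sites. RefSeq gives windows at chr11:12027922-12028221 and chr11:12037371-12037670, both on the minus strand. The 150 bases before these starts differ in composition, with 50.7% and 81.3% G and C. They hold none of the motifs searched and are shown because the counts add up the whole gene, so that transcripts from the alternative starts were not separated.
Grb10 at chr11:12027972-12028121: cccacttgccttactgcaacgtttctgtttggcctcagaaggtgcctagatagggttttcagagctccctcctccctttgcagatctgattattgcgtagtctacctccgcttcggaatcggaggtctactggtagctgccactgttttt
Grb10 at chr11:12037421-12037570: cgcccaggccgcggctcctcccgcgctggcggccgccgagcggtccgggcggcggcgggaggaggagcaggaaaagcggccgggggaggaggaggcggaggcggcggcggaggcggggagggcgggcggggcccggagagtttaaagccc

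To set the genes against each other, CPM was divided by exon length (CPM per kb). Igfbp5 had the highest level, with 31.3 ± 6.54 CPM per kb (SD, n = 20), more than 91.8% of the genes tested. The adaptor Irs2 (14.6 ± 2.36) and the transcription factor Foxo3 (10.8 ± 1.47) came next. Igfbp2 (6.96 ± 2.49), Foxo1 (5.81 ± 0.861), the insulin receptor Insr (5.10 ± 0.51) and the IGF-1 receptor Igf1r (5.10 ± 0.646) lay close together, followed by Grb10 (3.74 ± 0.609). The receptor genes span chr7:67952827-68233668 on the plus strand (Igf1r) and chr8:3122061-3279617 on the minus strand (Insr). The adaptor Irs1 (1.43 ± 0.242) and the ligand Igf1 (1.01 ± 0.132, chr10:87858265-87937042, plus strand) had the lowest levels, and 25.9% of the genes tested lay below Igf1.

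Neighbours in this order did not all differ beyond their spread. Igfbp5 was above Irs2 in 20 of 20 libraries, Irs2 above Foxo3 in 20 and Igf1r above Grb10 in 20, although the ranges over all libraries overlapped. Only Grb10 and Irs1 had ranges that did not overlap. Insr was above Igf1r in 9 of 20 libraries and Igfbp2 above Foxo1 in 12 of 20, so these pairs were not separated. Irs1 shares 30.9% of its exon length with a gene on the opposite strand, and the kit did not keep the strand. Its counts there are uncertain and could be too high or too low. The shares for Foxo1 and Irs2 are 7.78% and 2.56%.

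**Figure D1:**
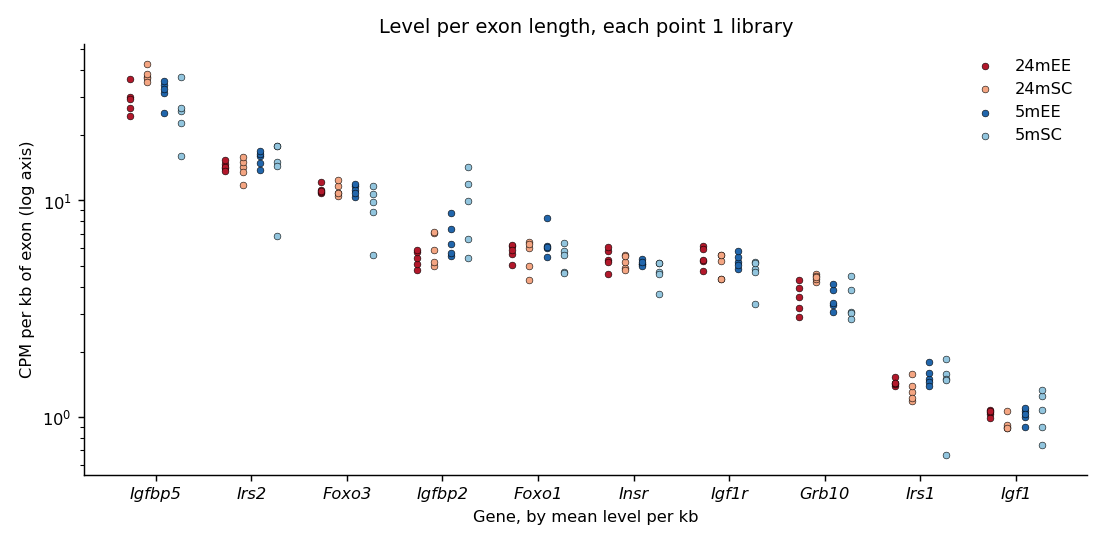
Level of each gene in CPM per kb of exon (log axis), each point 1 library, coloured by group, genes ordered by their mean over 20 libraries. Igfbp5 lies at 31.3 CPM per kb on average and Igf1 at 1.01, and the low points of Irs2, Foxo3 and Igfbp5 are from 5mSC replicate 3.

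The question of age in standard cages was addressed by comparing 24mSC with 5mSC. None of the 10 genes passed edgeR's test at an adjusted p under 0.05, and 4 had an unadjusted p under 0.05. Of all genes tested, 0.803% passed and 20.5% had an unadjusted p under 0.05. The 4 genes were Igfbp5, Igfbp2, Grb10 and Foxo3. DESeq2 called 2 of the 10 and 4.55% of all genes, and limma with sample quality weights called 1 of the 10 and 1.83% of all genes. For no member did the 24mSC and 5mSC libraries separate without overlap, as they did for 3.24% of all genes. The median log2 fold change was 0.08 over the 10 genes and -0.01 over all genes.

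Igfbp5, an IGF-binding protein found in the matrix as well as in solution, had 224.2, 221.4, 229.6, 257.7 and 210.9 CPM in 24mSC, against 137, 223.4, 96.8, 155.1 and 160.2 CPM in 5mSC. All 24mSC libraries exceeded 4 of the 5 5mSC libraries, and 5mSC replicate 2 lay among the old ones. The log2 fold change was 0.56 (SE 0.154, 95% interval 0.24 to 0.88, adjusted p = 0.0698). DESeq2 gave an adjusted p of 0.018. Without 5mSC replicate 2 the change was 0.73 (adjusted p = 0.00751), and without 5mSC replicates 1 and 3 it was 0.35 (adjusted p = 0.133). Replicate 2 had a quality weight of 1.14, and without it 1127 of all genes passed, against 134 with all libraries.

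Igfbp2, the binding protein most abundant in cerebrospinal fluid, had 11.0, 9.20, 13.0, 9.61 and 13.1 CPM in 24mSC, against 18.4, 9.99, 26.3, 22.1 and 12.3 CPM in 5mSC. In 5mSC, 3 libraries lay above every 24mSC library and the other two lay within their range. The log2 fold change was -0.66 (SE 0.20, 95% interval -1.07 to -0.24, adjusted p = 0.0901), with an adjusted p of 0.0371 by DESeq2. It was -0.80 without 5mSC replicate 2 (adjusted p = 0.0159), where 1127 of all genes passed, but -0.42 without 5mSC replicates 1 and 3 (adjusted p = 0.24).

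Grb10, the inhibitor at the receptor, had 41.5, 38.2, 39.4, 40.8 and 40.4 CPM in 24mSC, against 27.7, 35.2, 40.5, 27.4 and 25.7 CPM in 5mSC. The 24mSC libraries lay within a narrow range, with a coefficient of variation of 3.24%, and only 5mSC replicate 3, the library that stood apart, reached it. The log2 fold change was 0.37 (SE 0.121, 95% interval 0.12 to 0.62, adjusted p = 0.107). Without 5mSC replicate 3 it was 0.47 (adjusted p = 0.0245), with quality weights 0.46 (adjusted p = 0.0354), and without 5mSC replicates 1 and 3 0.45 (adjusted p = 0.0517).

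Foxo3 averaged 85.2 ± 6.15 CPM in 24mSC and 70.6 ± 17.7 CPM in 5mSC (n = 5 each, mean ± SD), 0.27 apart on the log2 scale (SE 0.123, adjusted p = 0.227). Without 5mSC replicates 1 and 3 it was 0.07 (adjusted p = 0.611). The young mean rests on 5mSC replicate 3, at 42.4 CPM, whereas the other 5mSC libraries had 66.6, 88.5, 74.3 and 81.0 CPM. Foxo1, the other FOXO factor among the members, averaged 48.6 ± 8.08 CPM in 24mSC and 47.0 ± 6.58 CPM in 5mSC. Its log2 fold change was 0.04, with a 95% interval from -0.21 to 0.30.

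For the ligand, the receptors and the adaptors the intervals included 0 in the fit of all 20 libraries. Igf1 averaged 9.23 ± 0.765 CPM in 24mSC and 10.5 ± 2.4 CPM in 5mSC, a log2 fold change of -0.18 (95% interval -0.43 to 0.07). Igf1r averaged 84.2 ± 10.8 CPM in 24mSC and 77.7 ± 12.9 CPM in 5mSC (0.12, interval -0.11 to 0.35), and Insr 71.4 ± 4.96 CPM in 24mSC and 63.9 ± 8.05 CPM in 5mSC (0.16, interval -0.02 to 0.34). Irs1 averaged 12.2 ± 1.42 CPM in 24mSC and 12.9 ± 4.07 CPM in 5mSC (-0.07, interval -0.42 to 0.29). Irs2 averaged 89.2 ± 9.82 CPM in 24mSC and 91.0 ± 28.5 CPM in 5mSC (-0.03, interval -0.37 to 0.30). Without 5mSC replicates 1 and 3 the changes were -0.31 for Igf1 (SE 0.106), 0.04 for Igf1r (SE 0.097) and 0.11 for Insr (SE 0.077). They were -0.19 for Irs1 (SE 0.0896) and -0.24 for Irs2 (SE 0.0868). The adjusted p of these 5 genes ran from 0.112 (Igf1) to 0.873 (Igf1r). The spread of both adaptors in 5mSC rests on single libraries, 6.08 CPM of Irs1 in replicate 1 and 43.2 CPM of Irs2 in replicate 3.

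**Figure D2:**
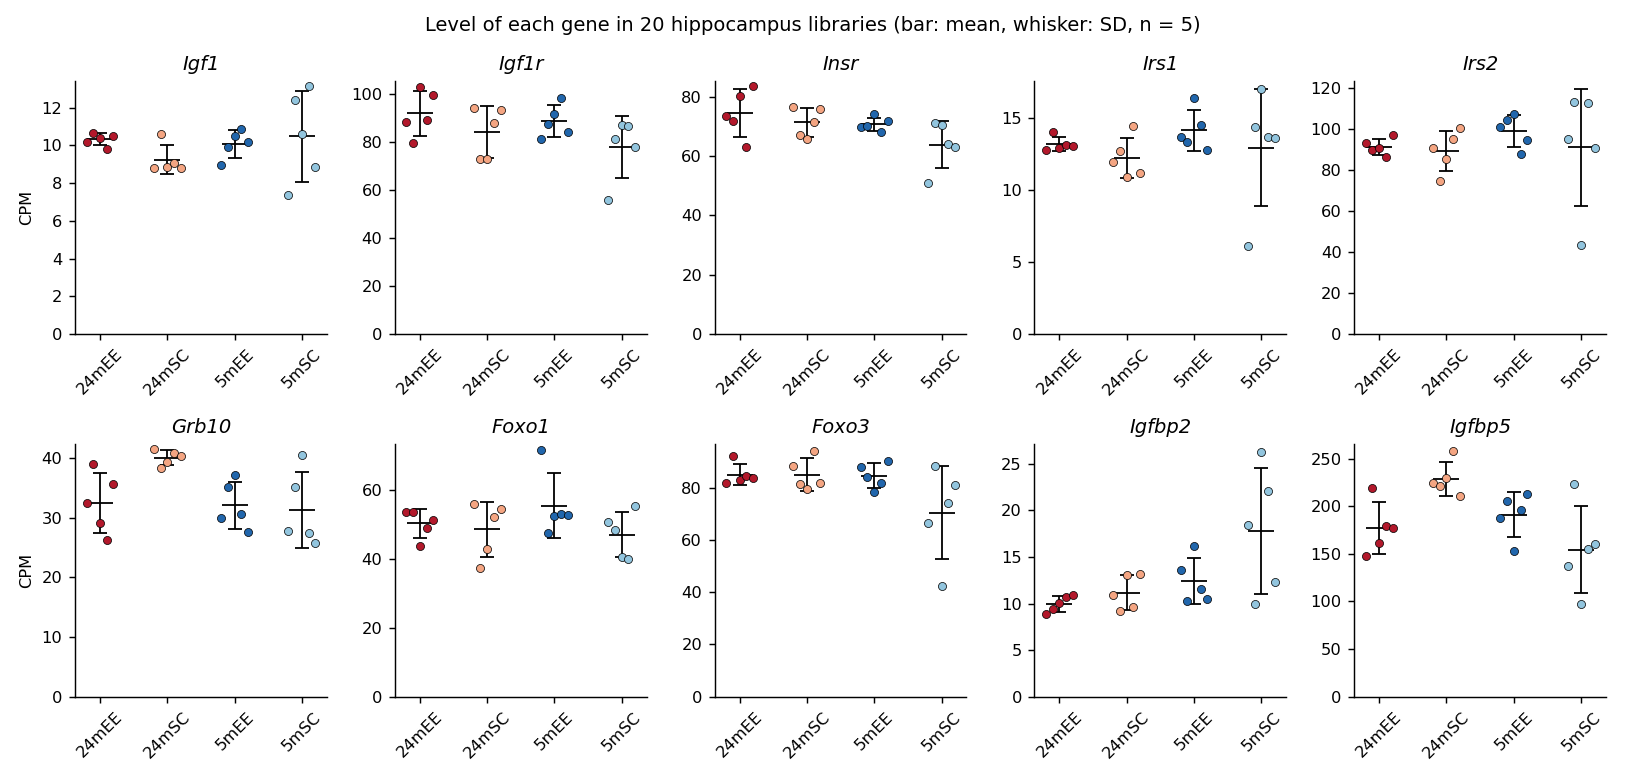
CPM of each gene in every library (points), with the mean (bar) and SD (whisker) of 5 libraries a group, for 24mEE, 24mSC, 5mEE and 5mSC. Grb10 and Igfbp5 have their highest means in 24mSC (40.1 and 228.8 CPM), and 5mSC has the widest SD for every gene other than Foxo1.

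The effect of late enrichment was addressed by comparing 24mEE with 24mSC. None of the 10 genes passed edgeR's test, nor did any gene at all (0%). An unadjusted p under 0.05 was found for 2 of the 10, Grb10 and Igfbp5, and for 6.21% of all genes. DESeq2 called 0 of the 10 and limma with quality weights 1 (Igfbp5), against 31 and 379 of all genes. The edgeR fit of 20 libraries shares its estimate of the spread with 5mSC, including replicates 1 and 3. With only 24mEE and 24mSC fitted, 187 of all genes passed edgeR's test. In that fit the adjusted p was 0.0694 for Igfbp5 (SE 0.0907) and 0.119 for Grb10 (SE 0.0893). No member separated the groups without overlap, and 3.43% of all genes did. The median log2 fold change was 0.04 over the 10 genes and 0.00 over all genes.

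Grb10 had 32.4, 38.9, 29.1, 26.2 and 35.7 CPM in 24mEE, against 41.5, 38.2, 39.4, 40.8 and 40.4 CPM in 24mSC. In 24mEE, 4 libraries were below every 24mSC library and replicate 2 was within their range. The log2 fold change was -0.30 (SE 0.12, 95% interval -0.55 to -0.05, adjusted p = 0.634), and the adjusted p was 0.0533 with quality weights.

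Igfbp5 had 147.3, 219.4, 161.3, 179.8 and 177.3 CPM in 24mEE, against 224.2, 221.4, 229.6, 257.7 and 210.9 CPM in 24mSC. Again replicate 2 of 24mEE alone lay within the range of 24mSC. The log2 fold change was -0.37 (SE 0.153, 95% interval -0.69 to -0.05, adjusted p = 0.671), and with quality weights -0.42 (adjusted p = 0.0411). The comparison shares the 24mSC libraries with the age comparison, so the opposite signs of Grb10 and Igfbp5 in them are not independent.

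The other 8 genes had log2 fold changes between -0.17 (Igfbp2) and 0.16 (Igf1) in 24mEE over 24mSC. Igf1 had 10.2, 10.7, 10.4, 9.83 and 10.5 CPM in 24mEE, against 8.82, 10.6, 8.87, 9.07 and 8.82 CPM in 24mSC. All 24mEE libraries were thus above 4 of the 5 24mSC libraries, but the 95% interval ran from -0.09 to 0.41. Foxo3 averaged 85.1 ± 4.08 CPM in 24mEE and 85.2 ± 6.15 CPM in 24mSC, and Irs2 averaged 91.3 ± 3.93 CPM in 24mEE and 89.2 ± 9.82 CPM in 24mSC. Igf1r averaged 91.9 ± 9.53 CPM in 24mEE and 84.2 ± 10.8 CPM in 24mSC, and Insr averaged 74.4 ± 8.04 CPM in 24mEE and 71.4 ± 4.96 CPM in 24mSC.

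At 5 months, 5mEE was compared with 5mSC. None of the 10 genes passed edgeR's test, nor did any other gene (0%), and DESeq2 and limma with quality weights called 0 of the 10, against 30 and 0 of all genes. Igfbp2 and Foxo3 had an unadjusted p under 0.05, 2 of the 10, against 16.5% of all genes. No member separated the groups, and 1.62% of all genes did. Igfbp2 had 13.6, 10.3, 16.2, 11.6 and 10.5 CPM in 5mEE, against 18.4, 9.99, 26.3, 22.1 and 12.3 CPM in 5mSC. This amounts to -0.51 on the log2 scale (SE 0.197, adjusted p = 0.245). The highest level, in 5mSC replicate 3, was in the library that stood apart, and without 5mSC replicates 1 and 3 the change was -0.27 (adjusted p = 0.792).

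Igfbp5 averaged 191.3 ± 23.4 CPM in 5mEE and 154.5 ± 45.8 CPM in 5mSC, with a log2 fold change of 0.31 (95% interval -0.01 to 0.63, adjusted p = 0.321). Foxo1 averaged 55.5 ± 9.38 CPM in 5mEE and 47.0 ± 6.58 CPM in 5mSC (0.24, adjusted p = 0.337), and Foxo3 84.7 ± 4.85 CPM in 5mEE and 70.6 ± 17.7 CPM in 5mSC (0.26, adjusted p = 0.30). Without 5mSC replicates 1 and 3 these were 0.09 for Igfbp5, 0.21 for Foxo1 and 0.06 for Foxo3. With the choroid plexus markers as a covariate the change of Foxo3 was 0.35 (adjusted p = 0.042), and 478 of all genes passed in that fit, against 0 without it. These markers were highest in 5mSC replicate 3, which also had the lowest Foxo3 (42.4 CPM). With markers of the meninges and perivascular fibroblasts as a covariate the change of Foxo3 was 0.04 (adjusted p = 0.932). The other 6 genes had log2 fold changes between -0.05 (Igf1) and 0.19 (Igf1r), and without 5mSC replicates 1 and 3 between -0.19 (Igf1) and 0.13 (Grb10).

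Age among enriched mice was addressed by comparing 24mEE with 5mEE, which shares no library with the comparison in standard cages. None of the 10 genes passed edgeR's test, against 0.108% of all genes, and 0 had an unadjusted p under 0.05, against 4.61% of all genes. DESeq2 and limma called 0 of the 10 as well, against 39 and 162 of all genes, and no member separated the groups, against 2.76% of all genes. Igfbp2 averaged 9.97 ± 0.878 CPM in 24mEE and 12.4 ± 2.49 CPM in 5mEE, a log2 fold change of -0.32 (95% interval -0.74 to 0.09). Igfbp5 averaged 177 ± 27.1 CPM in 24mEE and 191.3 ± 23.4 CPM in 5mEE, a log2 fold change of -0.11 (95% interval -0.43 to 0.21). Grb10 averaged 32.5 ± 5.07 CPM in 24mEE and 32.1 ± 3.95 CPM in 5mEE, a log2 fold change of 0.02 (95% interval -0.23 to 0.27). The means of 24mEE and 5mEE for Igfbp5 and Grb10 thus lay below those of 24mSC.

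**Figure D3:**
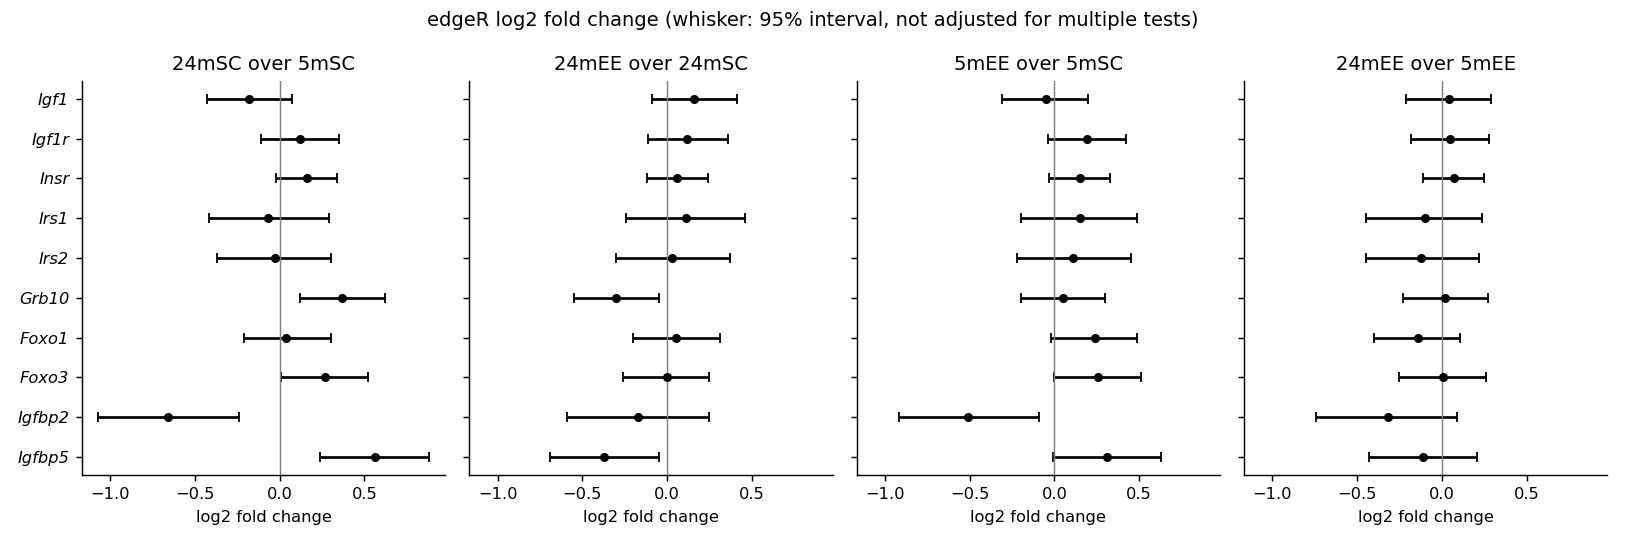
edgeR log2 fold change of each gene in 4 comparisons (points) with its 95% interval (whiskers), not adjusted for multiple tests. Intervals exclude 0 for Igfbp5, Igfbp2, Grb10 and Foxo3 in 24mSC over 5mSC for Grb10 and Igfbp5 in 24mEE over 24mSC and for Igfbp2 and Foxo3 in 5mEE over 5mSC, and every interval in 24mEE over 5mEE includes 0.

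Whether enrichment acted differently at 24 and 5 months was tested as an interaction, (24mEE - 24mSC) - (5mEE - 5mSC). None of the 10 genes passed edgeR's test, nor did any other gene (0%), and DESeq2 and limma called 0 of the 10, against 6 and 0 of all genes. Of the 10 members, 1 (Igfbp5) had an unadjusted p under 0.05, against 8% of all genes. Its interaction was -0.68 on the log2 scale (SE 0.217, 95% interval -1.13 to -0.22, adjusted p = 0.621), made up of -0.37 at 24 months and 0.31 at 5 months. Without 5mSC replicate 3 it was -0.54 and without 5mSC replicate 2 it was -0.84. Grb10 had an interaction of -0.35 (95% interval -0.70 to 0.00) and Igfbp2 of 0.34 (95% interval -0.25 to 0.92). Without 5mSC replicates 1 and 3 the interactions were -0.46 for Igfbp5, -0.43 for Grb10, 0.10 for Igfbp2 and -0.06 for Foxo3, whose value with all libraries was -0.26.

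Bulk tissue holds many cell types and neighbouring regions, and fewer cells of a type cannot be told apart from less RNA per cell. Igfbp5 moved with markers of the neocortex (Cux2, Rorb, Scnn1a, Rspo1, Lamp5 and Cux1). Over the 18 libraries other than 5mSC replicates 1 and 3, Pearson's r of log2 CPM was 0.80 with the mean of the 6 markers, and 0.76 once group means were removed. The 6 markers, all detected, averaged 3.54 to 4.33 in 24mEE, 3.91 to 4.45 in 24mSC, 3.64 to 4.03 in 5mEE and 3.61 to 4.38 in 5mSC on the log2 CPM scale. The r of Igfbp5 with 6 striatum markers was 0.82, and these averaged 1.85 to 2.73 in 24mEE, 2.74 to 3.07 in 24mSC, 2.15 to 2.81 in 5mEE and 1.98 to 2.84 in 5mSC, so that 24mSC lay above all 24mEE libraries. Grb10 had an r of 0.77 with the striatum markers and 0.64 with those of the neocortex, and -0.67 with CA2 markers. Within groups these were 0.59, 0.56 and -0.42. Its r was also 0.71 with interneuron markers (0.63 within groups), -0.66 with those of CA3 and -0.53 with those of the dentate gyrus. Igfbp5 further had an r of 0.68 with thalamus markers and -0.71 with those of CA3. The relations named were picked from 18 marker lists. The values compared come from the same libraries and dissections, with depths from 16.12 to 34.11 M counts, and the markers' part in the results was not tested beyond the fits that follow.

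With the striatum markers as a covariate, a fit chosen after seeing the data, the log2 fold change of Igfbp5 in 24mSC over 5mSC was 0.30 (adjusted p = 0.582), and that of Grb10 was 0.15 (adjusted p = 0.717). In 24mEE over 24mSC these were -0.09 for Igfbp5 and -0.07 for Grb10 (adjusted p = 0.9999 for each). With the neocortex markers they were 0.40 and 0.27 in 24mSC over 5mSC, and -0.13 and -0.16 in 24mEE over 24mSC. The signs were unchanged and the sizes smaller, but with the striatum markers the SE in 24mEE over 24mSC was 0.18 for Igfbp5 and 0.142 for Grb10. The striatum markers did not overlap between 24mSC and 24mEE, so that fit cannot separate group from marker. Over all genes, 2 passed in 24mSC over 5mSC with the striatum covariate, against 134 without it.

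Igfbp2 moved with 8 markers of the meninges and perivascular fibroblasts, the cells that wrap the brain and its vessels (Col1a1, Col1a2, Col3a1, Dcn, Lum, Slc6a13, Aldh1a2 and Ogn). Its r was 0.77 over 18 libraries, 0.69 within groups, and 0.87 over 20. All 8 markers were detected, and their mean on the log2 CPM scale was 1.79 to 2.24 in 24mEE, 1.83 to 2.47 in 24mSC, 2.11 to 2.31 in 5mEE and 2.33 to 3.50 in 5mSC. The 3 libraries highest in Igfbp2 were also the 3 highest in these markers. With their mean as a covariate, again chosen after seeing the data, the log2 fold change of Igfbp2 was -0.13 in 24mSC over 5mSC (adjusted p = 0.755) and -0.01 in 5mEE over 5mSC (adjusted p = 0.991). The markers did not overlap between 5mSC and 5mEE, so the fit cannot separate group from marker there. With the same covariate, Igfbp5 was 0.27 and Grb10 0.52 in 24mSC over 5mSC, and -0.46 and -0.27 in 24mEE over 24mSC. With the striatum and neocortex markers, Igfbp2 was -0.40 and -0.42 in 24mSC over 5mSC, and -0.42 and -0.46 in 24mEE over 24mSC. Smaller sizes in 24mSC over 5mSC were thus not limited to the markers paired with each gene above. What part meningeal cells and fibroblasts had in the difference of Igfbp2 was not tested.

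**Figure D4:**
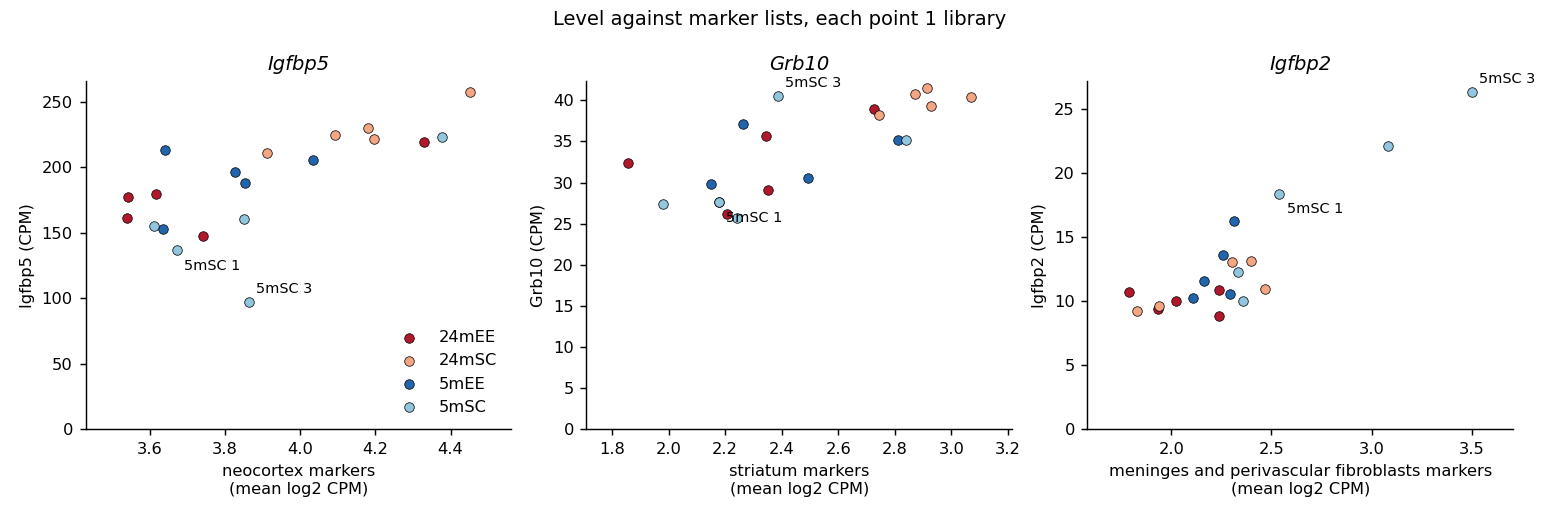
CPM of Igfbp5, Grb10 and Igfbp2 against the mean log2 CPM of neocortex, striatum and meningeal markers, each point 1 library coloured by group, with 5mSC replicates 1 and 3 named. Igfbp2 is highest, at 26.3 CPM, in 5mSC replicate 3, where the meningeal markers average 3.50.

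Foxo1 moved with dentate gyrus markers (r = 0.64 over 18 libraries) and against those of CA1 (-0.60). Irs2 had an r of 0.62 with the meningeal markers over 18 libraries, but -0.40 over all 20. Among the members, the receptors Igf1r and Insr had an r of 0.64, Foxo3 had 0.64 with Igfbp5 and -0.65 with Igfbp2, and the neighbours Igfbp2 and Igfbp5 had -0.39 (-0.58 within groups). These values describe the same 18 libraries, each gene pair being read from 1 dissection.

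By the rule of highest r over the same 18 libraries among 13067 genes, the genes most like Igfbp5 were Tbr1 (0.91), Mef2c (0.89) and Tshz3 (0.86), with 0.76, 0.93 and 0.61 over 20 libraries. Tbr1 is a transcription factor of excitatory neurons of the forebrain. Those most like Grb10 were Pcnt (0.93), Lig1 (0.92) and Dpp10 (0.92), and those most like Foxo1 were Grik2 (0.90), C1ql2 (0.88), itself among the dentate gyrus markers, and Thsd7a (0.87). Igf1r was most like Vps13b (0.90), Trrap (0.89) and Scn8a (0.89), and Golgb1 and Dync1h1 (0.89 each) were among those most like Insr. Irs1 was most like Lnpep (0.84), Bicd1 (0.78) and Pdzd8 (0.78), and Irs2 most like Ankrd52 (0.88), Urb2 (0.84) and Kdm2a (0.83). The others were Foxo3, most like Gucy2g (0.86), Limd1 (0.82) and Gabrd (0.81), Igf1, with Heca (0.77) and Nmt2 (0.74) among those most like it, and Igfbp2, most like Mtmr4 (0.78), Alg3 (0.77) and Cops7a (0.76). For Kdm2a, Limd1, Gabrd and Cops7a the r over all 20 libraries was below 0 (-0.17, -0.34, -0.39 and -0.09).

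The wider pathway was covered by 99 further genes in 12 lists, of which 91 were tested. None of the 91 passed edgeR's test in any of the 5 comparisons. In 24mSC over 5mSC, 10 of the 91 were higher and 13 lower at an unadjusted p under 0.05, against 8.72% and 11.7% of all genes. In 24mEE over 24mSC 0 were higher and 5 lower, against 2.22% and 3.99% of all genes. In 5mEE over 5mSC 15 were higher and 3 lower, against 6.52% and 10% of all genes. The 5mSC group there includes replicates 1 and 3, and how far this count rests on them was not tested. In 24mEE over 5mEE 1 was higher and 3 lower, against 2.71% and 1.9%, and for the interaction 1 was higher and 2 lower, against 4.4% and 3.61%. DESeq2 called 5 of the 91 in 24mSC over 5mSC (Ccng2, Cdkn1b, Ptprf, Stc1 and Stc2), where it called 4.55% of all genes, and 0 in the other comparisons. Limma with quality weights called 2 in 24mSC over 5mSC (Ptpn1 and Socs3) and 2 in 24mEE over 24mSC (Deptor and Socs3), where it called 1.83% and 2.27% of all genes, and 0 in the others. The median log2 fold change of the 91 was 0.06, -0.01, 0.07, -0.04 and -0.10 in these 5 comparisons, in the order given, against -0.01, 0.00, -0.02, 0.00 and 0.01 over all genes. The 8 genes that were not tested for low counts include insulin itself (Ins1 and Ins2, at most 18 and 1 counts in a library), the receptor Insrr, Irs3, Irs4, Trib3, Igfbp1 and Igfals.

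Of each list, the gene with the smallest p is named. The ligand Igf2, in the brain mainly a product of the meninges and choroid plexus, averaged 20.4 ± 4.35 CPM in 24mSC and 27.8 ± 10.6 CPM in 5mSC (log2 fold change -0.47, adjusted p = 0.218). Its exons overlap those of another gene on the same strand over 62.8% of their length, so its counts are uncertain. The PI3-kinase regulatory subunit Pik3r1 averaged 143.2 ± 13.8 CPM in 24mSC and 113.5 ± 22.2 CPM in 5mSC (0.33, adjusted p = 0.102), and the kinase Mtor 147.1 ± 15.1 CPM in 24mSC and 115.4 ± 27 CPM in 5mSC (0.35, adjusted p = 0.148). The GTPase Nras averaged 44.6 ± 2.36 CPM in 24mSC and 51.2 ± 5.15 CPM in 5mSC (-0.20, adjusted p = 0.122). Stc2, an inhibitor of the protease that cleaves IGF-binding proteins, averaged 2.96 ± 1.0 CPM in 24mSC and 5.16 ± 2.09 CPM in 5mSC (-0.78, adjusted p = 0.096). Without 5mSC replicates 1 and 3, a setting added for these genes after seeing the data, the changes were -0.65 for Igf2, 0.18 for Pik3r1, 0.15 for Mtor, -0.25 for Nras and -0.62 for Stc2.

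Closest to the threshold was Ccng2, a cyclin and known FOXO target, with 57.6, 59.4, 54.7, 57.5 and 48.2 CPM in 24mSC, against 69.0, 63.0, 88.6, 65.4 and 69.8 CPM in 5mSC. These groups did not overlap, as in 3.24% of all genes, but Ccng2 was named for its small p. The log2 fold change was -0.36 (SE 0.0898, adjusted p = 0.0551), and -0.26 without 5mSC replicates 1 and 3 (adjusted p = 0.0825). In 24mEE and 5mEE it averaged 60.2 ± 5.08 and 62.7 ± 5.27 CPM.

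Between enriched and standard cages at 5 months, the receptor Igf2r averaged 49.2 ± 4.04 CPM in 5mEE and 42.8 ± 3.99 CPM in 5mSC (0.21, adjusted p = 0.385), and the adaptor Shc1 6.84 ± 0.477 CPM in 5mEE and 11.2 ± 7.85 CPM in 5mSC (-0.66, adjusted p = 0.243). Shc1 was at 24.98 CPM in 5mSC replicate 3 and at 6.37, 6.64, 7.86 and 10.01 CPM in the other 5mSC libraries, and without 5mSC replicates 1 and 3 its change was -0.28 (adjusted p = 0.73). Bad, which AKT phosphorylates, averaged 17.4 ± 1.05 CPM in 5mEE and 21.7 ± 4.26 CPM in 5mSC (-0.31, adjusted p = 0.223), and Foxo6 20.5 ± 6.46 CPM in 5mEE and 24.8 ± 10.1 CPM in 5mSC (-0.30, adjusted p = 0.517). Without 5mSC replicates 1 and 3 these were 0.19 for Igf2r, -0.12 for Bad and -0.24 for Foxo6. The phosphatase Ptprf had the smallest p among the inhibitors at the receptor, for an interaction of -0.66 (adjusted p = 0.613), and -0.50 without those libraries. Igfbpl1, a secreted relative of the binding proteins, had 2, 3, 11, 7 and 3 counts in 24mEE, against 79, 24, 14, 20 and 51 counts in 5mEE. These groups did not overlap, as in 2.76% of all genes, but the counts were low and Igfbpl1 was named for its small p. The log2 fold change was -2.51 (SE 0.755, adjusted p = 0.519). In 24mSC it had 3, 0, 4, 3 and 45 counts.

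**Figure D5:**
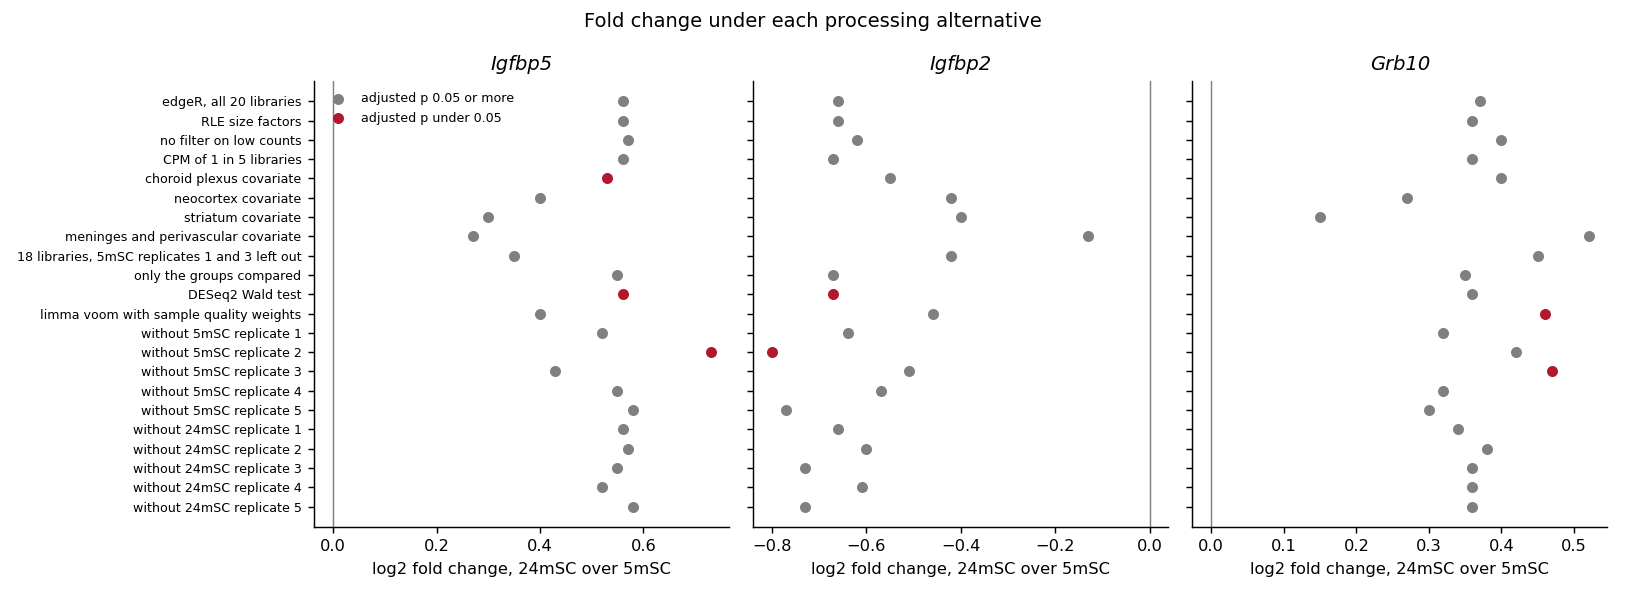
edgeR or alternative log2 fold change of Igfbp5, Igfbp2 and Grb10 in 24mSC over 5mSC under each setting, red where the adjusted p was under 0.05. Every setting keeps the direction, and the values run from 0.27 to 0.73 for Igfbp5, from -0.80 to -0.13 for Igfbp2 and from 0.15 to 0.52 for Grb10.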

How the data were processed

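Per the labels, libraries were made with TruSeq RNA kit v2, which does not keep the strand. The authors deposited a table of raw read counts, 1 integer for each Ensembl gene and library. The submitters' processing notes name bcl2fastq 1.8.2, STAR 2.4.1d, featureCounts 1.4.6-p4 and GRCm38. Deposited RPKM values were not used here. No columns of other samples were found (0).

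Identifiers were matched to symbols for 98.9% of genes, and positions and exon lengths came from GENCODE. Genes with low counts were removed with filterByExpr of edgeR 4.0.16 (least count 10, least total 15) in R 4.3.3. Libraries were scaled by TMM. The 20 libraries entered 1 quasi-likelihood model with a term for each of the 4 groups, from which 5 comparisons were drawn, with Benjamini-Hochberg adjustment over the 16692 genes. The 95% intervals use the standard error implied by the F statistic. The biological coefficient of variation was 17.4%, and 9.88% without 5mSC replicates 1 and 3. No pair of libraries in a group had identical counts. The script was tested on simulated counts with the same spread for every gene and no library apart in composition. That test does not cover a library such as 5mSC replicate 3.

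Marker levels are the mean log2 CPM with a prior count of 0.5. Genes with a log2 CPM of at least 1 were candidates for a like pattern, and the 3 with the highest r over 18 libraries were named, except for some that are not reported here. Of each pathway list, in which no gene passed, the gene with the smallest p over the 5 comparisons was named. Genes called by another tool were named after their values were seen. Alternatives were DESeq2 1.42.0 (size factors and Wald test), other filters (none, or a CPM of 1 in 5 libraries), limma 3.58.1 voom with quality weights, marker covariates, only the groups compared, and leaving out libraries. Floors of 3 counts cover counting error only. The 10 members, the lists and the rules for naming genes were chosen with earlier results of these data known.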

Additional observations from a re-analysis of the deposited data

Results flagged for a closer look

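In 4 of the 40 sets of 5 libraries formed by 10 genes and 4 groups, the highest or lowest library lay far from the other 4 of its group. Chance gives such a gap in about 1 of 20 sets. Igf1 had 10.6 CPM in 24mSC replicate 2, above the other 24mSC libraries at 8.82 to 9.07 CPM. Igf1r had 55.7 CPM in 5mSC replicate 1, below the others at 78.0 to 87.1 CPM, in the library with a quality weight of 0.19. Foxo1 had 71.8 CPM in 5mEE replicate 1, above the others at 47.5 to 53.1 CPM. Foxo3 had 92.2 CPM in 24mEE replicate 2, above the others at 81.9 to 84.7 CPM. None of these gaps lay in 5mSC replicate 3. Their causes were not tested.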

How the results depend on the processing

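No paired analysis was possible because the labels carry no replicate numbers, and those used here only name the libraries. The neocortex, striatum and meningeal covariates were chosen after seeing the data. Of 390 log2 fold changes of the members under alternatives chosen earlier, 369 kept their direction and side of the threshold, 6 passed the threshold and 15 changed sign. These alternatives include the fit without 5mSC replicates 1 and 3, the libraries with the lowest quality weights in these same data. Of the 150 under the added covariates, 138 kept both and 12 changed sign. Of the 600 with 1 library left out, 561 kept both, 3 passed and 36 changed sign. The cause of these shifts was not tested.

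The number of members called in 24mSC over 5mSC was 0 with edgeR, 1 with the choroid plexus covariate (Igfbp5, adjusted p = 0.0429), 2 with DESeq2 and 1 with limma, and 0 to 2 with 1 library left out. It was 1 with limma in 24mEE over 24mSC and 1 with the choroid plexus covariate in 5mEE over 5mSC, against 0 with edgeR in each, and 0 with 1 library left out. Over all genes the count in 24mSC over 5mSC was 134, against 30 without 24mSC replicate 3 and 1127 without 5mSC replicate 2, 2 with the striatum covariate, 3 with only the groups compared, 47 with the neocortex covariate, 54 with the meningeal covariate, 59 with no filter, 306 with limma or the choroid plexus covariate, 363 with 18 libraries and 759 with DESeq2. In 24mEE over 24mSC it was 0, against 10 with 18 libraries, 31 with DESeq2, 187 with only the groups compared and 379 with limma. In 5mEE over 5mSC it was 0, against 478 with the choroid plexus covariate, 30 with DESeq2 and 1 with the meningeal covariate. In 24mEE over 5mEE it was 18, against 9 with no filter, 39 with DESeq2, 40 with the choroid plexus covariate, 52 with only the groups compared, 97 with 18 libraries, 162 with limma and 3 to 12 with 1 library left out. For the interaction it was 0, against 6 with DESeq2 and 1 with the neocortex covariate or 18 libraries.

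In 24mSC over 5mSC the meningeal covariate gave 0.03 for Irs1 and 0.00 for Foxo1. In 24mEE over 24mSC, Foxo3 was 0.00 with relative log expression factors, 18 libraries, only the groups compared and DESeq2, 0.01 with no filter, 0.11 with the neocortex and 0.08 with the striatum covariate, and Irs2 was -0.01 with the choroid plexus and -0.02 with the meningeal covariate. In 5mEE over 5mSC, Irs2 was -0.09 with 18 libraries, -0.09 with limma and -0.04 with the meningeal covariate. In 24mEE over 5mEE, Foxo3 was -0.16 with the choroid plexus and -0.07 with the meningeal covariate, and Grb10 was -0.01 with limma. For the interaction, Irs1 was 0.07 with the neocortex and 0.06 with the striatum covariate, 0.09 with 18 libraries and 0.01 with limma, and Irs2 was 0.13 with 18 libraries, 0.11 with limma and 0.02 with the meningeal covariate. The interaction of Insr was 0.00 with the striatum covariate, that of Igf1r 0.02 with 18 libraries and that of Igfbp2 -0.02 with the meningeal covariate, against 0.34 without a covariate.

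With 1 library left out, 24mSC over 5mSC ranged from -0.26 to 0.03 for Irs1, -0.21 to 0.05 for Irs2 and -0.02 to 0.12 for Foxo1. In 24mEE over 24mSC the ranges were -0.02 to 0.09 for Irs2, -0.03 to 0.11 for Foxo1 and -0.03 to 0.04 for Foxo3. In 5mEE over 5mSC they were -0.17 to 0.04 for Igf1, -0.05 to 0.24 for Irs1, -0.06 to 0.20 for Irs2 and -0.02 to 0.14 for Grb10. In 24mEE over 5mEE they were 0.00 to 0.07 for Igf1, -0.05 to 0.09 for Grb10 and -0.02 to 0.04 for Foxo3. For the interaction they were -0.11 to 0.05 for Igf1r, -0.13 to 0.16 for Irs1 and -0.16 to 0.10 for Irs2.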
